A study of Homo sapiens with 22 samples.

Results

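Histone genes encode the proteins around which DNA is wound, and this account covers every human protein-coding gene whose symbol begins with H1-, H2AC, H2BC, H3C or H4C. The rule finds 74 of the 19974 protein-coding genes on the autosomes and X. They encode 10 linker histones (H1), 17 of class H2A, 19 of H2B, 13 of H3 and 15 of H4. The set was selected on the covered bases of H2BC3 and H2AC25, which differed strongly between the cell lines, so differences between lines are described here and not tested.

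Most of these genes are replication-dependent: they are transcribed together in S phase under the coactivator NPAT, and their mRNAs end in a stem-loop bound by SLBP in place of a poly(A) tail. They lie in clusters, in which many H2A and H2B genes start back to back from a shared promoter. A few members are exceptions: H1-10 is a replication-independent linker histone, and H1-6, H1-7, H1-8, H2AC1 and H2BC1 are known from germ cells.

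Chromatin accessibility was measured by ATAC-seq in 22 libraries of KMS11 and KMS34, 2 multiple myeloma cell lines, and the deposited data are 1 list of called peaks per library. The series asks what induced degradation of NSD2, a histone methyltransferase, by the compound NSD2LDD does to such cells. There are 11 groups of 2 libraries, which are numbered as duplicates and not stated to be separate cultures, so p-values speak only for the spread among these libraries, which may be technical. No source used here gives the concentration of NSD2LDD.

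The KMS11 groups are untreated cells at day 0, a line labelled TKO at day 0 (a label no source used here explains), DMSO vehicle at day 4 and day 10, and NSD2LDD at day 4 and day 10, 12 libraries in all. The KMS34 groups are untreated cells at day 0, DMSO at day 4 and day 10, and NSD2LDD at day 4 and day 10, 10 libraries in all. The genotype given for every group other than TKO is t(4;14), the translocation that brings NSD2 under immunoglobulin heavy chain control, so both vehicle and treated cells carry it.

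The lists held 24979 to 39002 peaks in KMS11 (median 35606.5) and 34165 to 52518 in KMS34 (median 43898), and covered 11.5 to 27.1 Mb and 20.0 to 31.8 Mb. The files give no read counts, so sequencing depth is unknown and a peak that was not called cannot be told apart from one too shallow to call. Of 9 plasma cell markers, 7 had a peak within 1 kb of a gene end in every library. SLAMF7 had one in 9 KMS34 libraries and no KMS11 library, and FCRL5 in 2 KMS34 libraries. None of the 8 T and NK cell markers had one in every library, and CD3D, TCF7, GNLY and NKG7 had none in any, but CD3E had one in 11 KMS11 and 10 KMS34 libraries and CD2 and BCL11B in 12 and 9. Every library had one at 2 of 5 B cell markers (BCL6 and BACH2), 1 of 6 myeloid (CEBPA) and 1 of 5 stromal and endothelial markers (COL1A1). No library had one at 2, 5 and 2 of these. Of 3 erythroid markers, KLF1 had one in all 12 KMS11 libraries and no KMS34 library, and 2 had none.

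The results rest on 2 measures. A gene-end peak is a called peak within 1 kb of either end of a gene, and covered bp is the number of bases under called peaks, either within 1 kb of the gene ends or in the gene body and 5 kb either side. The genes were placed in clusters where neighbours lie within 500 kb: 34 genes on chromosome 6 from 25726063 to 26285534 (the large chromosome 6 cluster, hg38), 5 genes from 27132316 to 27147562 (the small one), 16 from 27807479 to 27893891 (the distal one), 11 on chromosome 1 from 149782689 to 149887965, a pair on chromosome 1 from 228457364 to 228458558, and 6 genes elsewhere.

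Most histone genes had a gene-end peak in every library, and a gene with such a peak is called open here. A gene-end peak was called in all 22 libraries at 43 of the 74 genes, where 48.7% of all protein-coding genes had one. No library had one at 13 genes, where 31.3% of all genes had none. In dense clusters a gene-end peak may lie at a neighbouring gene and not over the promoter, the bases just before the start. Promoter positions were at hand for 39 of the 43 genes. A peak lay over the promoter in all 22 libraries at 32 of them, in some libraries at 4 and in none at 3. The part of gene size and spacing in the comparison with all genes was not tested. The share of histone genes with a gene-end peak was 66.2% to 71.6% in the KMS11 libraries (median 71.6%) and 77.0% to 81.1% in the KMS34 libraries (median 78.4%). Over all genes the medians were 58.8% and 60.6%. In counts, 49 to 53 histone genes had a gene-end peak in a KMS11 library (52.3 ± 1.42, mean and SD, n = 12) and 57 to 60 in a KMS34 library (58.6 ± 1.07, n = 10), and these ranges do not overlap. Over all genes the ranges, 52.3% to 59.9% in KMS11 and 59.2% to 63.0% in KMS34, do. The gap in histone genes is made by 6 genes open in KMS34 alone, among them those on which the set was selected: without these 6 the KMS34 libraries had 51 to 54 (52.6 ± 1.07), within 1 gene of the KMS11 range.

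**Figure D1:**
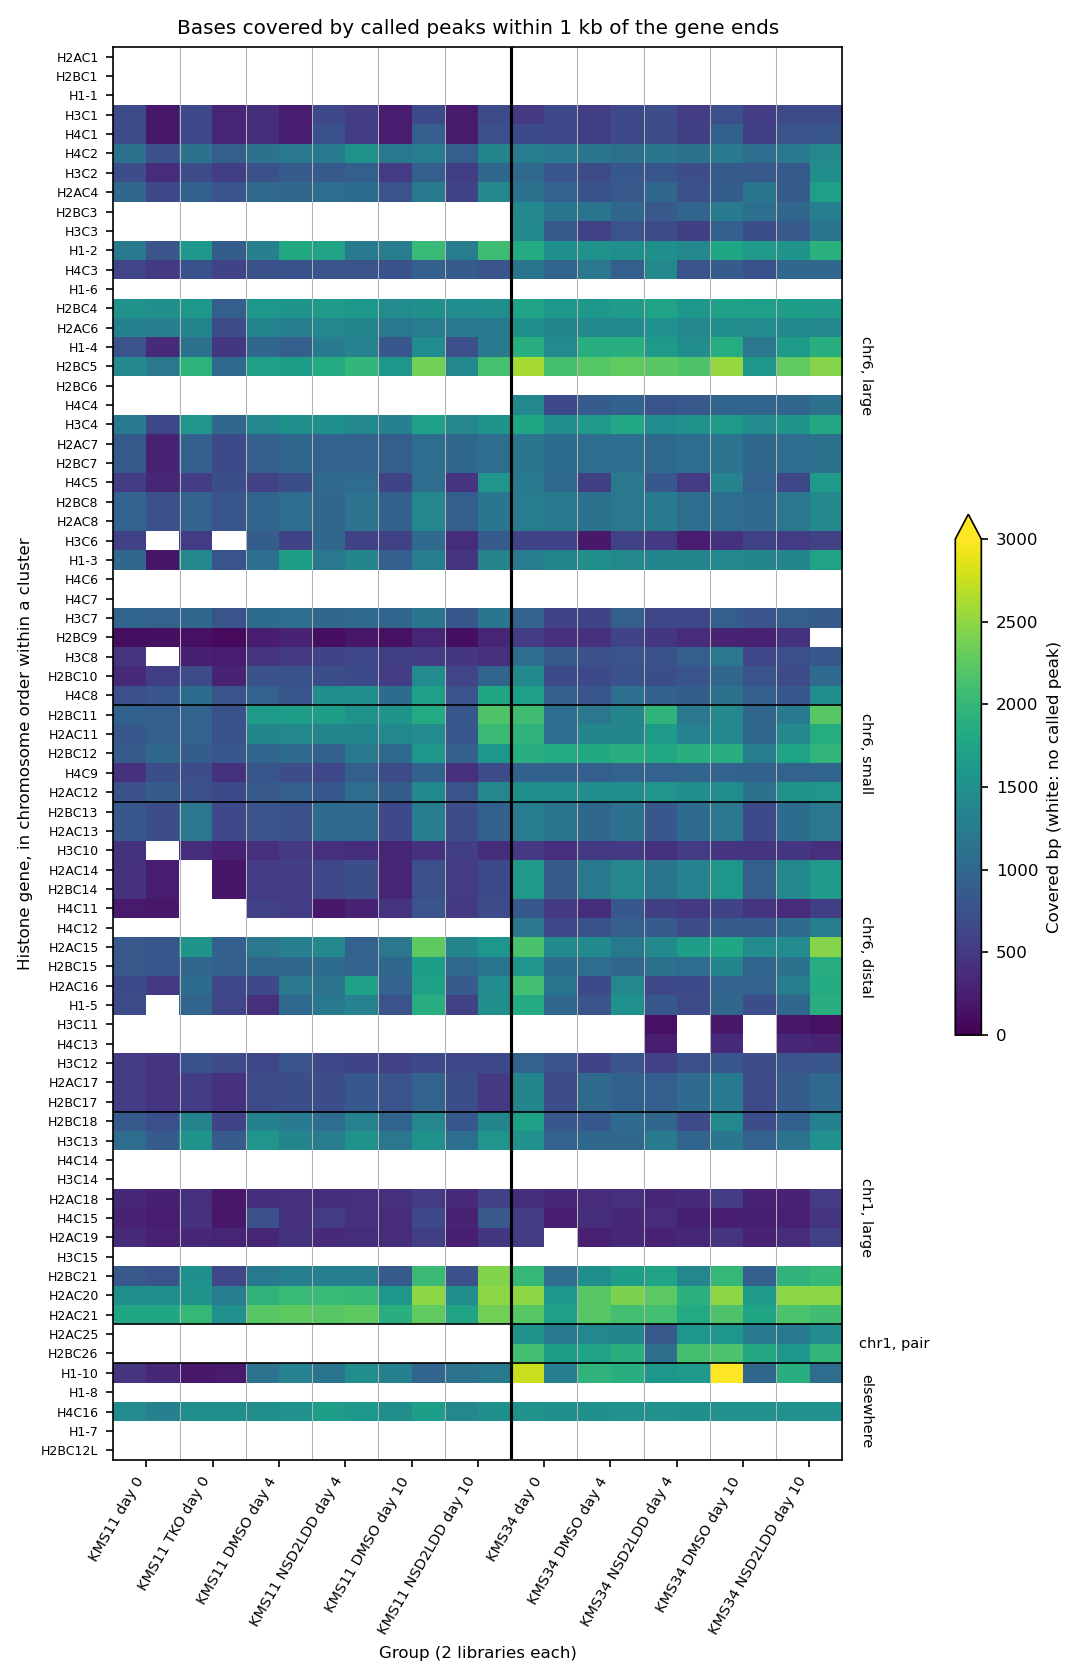
Covered bp within 1 kb of the gene ends for 73 of the histone genes (rows, by cluster) in the 22 libraries (columns, 2 per group; the heavy line separates KMS11 from KMS34), with white where no peak was called. Most rows are filled across all libraries, 13 are white throughout, and 6 are filled only to the right of the line.

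By class, a gene-end peak was called in every library at 13 of 17 H2A genes, 12 of 19 H2B genes, 8 of 15 H4 genes, 6 of 13 H3 genes and 4 of 10 H1 genes. By cluster, all 5 genes of the small chromosome 6 cluster had one in every library, as did 21 of 34 in the large cluster, 8 of 16 in the distal cluster and 7 of 11 in the larger chromosome 1 cluster. The genes most widely covered in their clusters, by the median over all libraries in the body and 5 kb either side, were H2BC5 (3042 bp) in the large cluster, H2BC12 (2371 bp) in the small one and H3C10 (2110.5 bp) in the distal one. H2BC21, H2AC20 and H2AC21 share 1 window on chromosome 1 and had a median of 2338 bp, and H4C16 on chromosome 12, an H4 gene outside the clusters, had 1741.5 bp. At the low end, H4C9 had 900.0 bp in the small cluster, and H4C12 and H4C13 in the distal cluster and H4C14 on chromosome 1 had a median of 0.

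Neighbouring histone genes often share a peak, so they are not independent observations. Each library had 38 to 53 distinct gene-end peaks (median 46.5), and 35 to 45 of the histone genes (median 37) shared a peak with another. Among the 67 histone genes with a promoter entry, 12 pairs start back to back within 1 kb of each other, and 11 of these pairs were an H2A gene with an H2B gene. Their starts lie 194 to 979 bp apart (median 238 bp), and 11 of the 12 pairs had the same kind of pattern at both genes, 8 of them with a peak in every library. The exception is H3C7 with H2BC9, whose starts are the most distant. A peak within 1 kb of both starts counts for both genes, so the agreement of the 11 pairs was largely fixed by the measure.

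The peaks shared by neighbouring H2A and H2B genes ranged from strong to weak. H2AC12 has no promoter entry, so it and H2BC12 are not among the 12 pairs above. H2AC11 and H2BC11 share a peak that ranked at a median of the 89.9 percentile of its library by -log10 q, and the peaks shared by H2AC12 and H2BC12 (88.5), H2AC20 and H2BC21 (88.0), H2AC15 and H2BC15 (87.2) and H2AC6 and H2BC4 (84.4) ranked close behind. Then came H2AC13 and H2BC13 (78.8), H2AC7 and H2BC7 (77.4), H2AC8 and H2BC8 (72.4), H2AC17 and H2BC17 (69.3) and, in KMS34 alone, H2AC25 and H2BC26 (64.5), and H2AC1 and H2BC1 had no peak. The highest median rank of all members (91.1) was at a peak shared by H2BC18 and H3C13, an H2B and an H3 gene on chromosome 1. H2AC6 had 695 to 1396 bp at its ends in KMS11 (median 1302 bp) and 1353 to 1512 bp in KMS34 (median 1438.5 bp), so that the lines overlap. The pair H2AC14 and H2BC14 in the distal cluster was the weakest with a peak, at a median of the 38.2 percentile. H2AC14 had 0 to 736 bp in KMS11 (median 532 bp) and 865 to 1628 bp in KMS34 (median 1363.5 bp), and these ranges do not overlap.

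The linker histone genes of the clusters that were open, H1-2, H1-3, H1-4 and H1-5, overlapped between the lines. H1-2 had 786 to 2068 bp at its ends in KMS11 (median 1292 bp) and 1403 to 1918 bp in KMS34 (median 1547 bp). H1-4 had 363 to 1464 bp (median 956 bp) and 1191 to 1877 bp (median 1748 bp). H1-5 had 878 and 990.5 bp as medians, and the 1 library without a gene-end peak there was KMS11 day 0 replicate 2, which has the shortest list of all.

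Open H3 and H4 genes ranged from steady to patchy. H4C16 had 1302 to 1678 bp at its ends in KMS11 and 1510 to 1527 bp in KMS34. In the body and 5 kb either side it differed more, with 1302 to 1757 bp in KMS11 and 2026 to 2425 bp in KMS34. The summit of its strongest gene-end peak lay a median of 998.5 bp after its start, beyond the gene. H4C8 had medians of 998.5 bp in KMS11 and 917.5 bp in KMS34 and a peak at a median of the 86.4 percentile. H3C6, H3C8 and H3C10 had weaker peaks, at medians of the 41.2, 48.7 and 50.9 percentiles, and each lacked a gene-end peak in at least 1 KMS11 library. H3C6 lacked it in KMS11 day 0 replicate 2 and in TKO replicate 2, and H3C8 and H3C10 lacked it in KMS11 day 0 replicate 2 alone.

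The 13 genes with no gene-end peak in any library include all 5 members known from germ cells: the H2A and H2B pair H2AC1 and H2BC1, and the linker histones H1-6, H1-7 and H1-8. The others are H1-1, a linker histone, H2BC6, H2BC12L, H3C14, H3C15, H4C6, H4C7 and H4C14. H2AC1 and H2BC1 lie apart at one edge of the large cluster and had no covered base within 5 kb in any library. The same held for H1-7, H1-8 and H2BC12L, while H4C14 had covered bases in 1 library and H4C6 in 2. H1-1, H1-6, H4C7, H3C14 and H3C15 lie beside open genes, and the covered bases in their wider windows lay more than 1 kb from their ends.

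Some copies are nearly identical in sequence, and no source used here says how reads that align to several copies were treated. On chromosome 1, H4C14 and H4C15 are identical over the 250 bases before their starts, H2AC18 and H2AC19 share a run of 249 bases there, and H3C14 and H3C15 a run of 246. No library had a peak over any of these 6 promoters. The gene-end peaks called at H2AC18, H2AC19 and H4C15 lay outside the promoters, and a closed promoter cannot be told apart from one whose reads were not assigned to a copy.

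A gene-end peak was called at 6 histone genes in all 10 KMS34 libraries and in none of the 12 KMS11 libraries: H2BC3, H3C3 and H4C4 in the large chromosome 6 cluster, H4C12 in the distal cluster, and the chromosome 1 pair H2AC25 and H2BC26. Over all protein-coding genes 1.22% (244 genes) had this pattern. These genes belong to the contrast for which the set was proposed, so the count is given without a test.

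H2BC3 encodes an H2B protein and lies on the minus strand at chr6:26043227-26043713. Its gene ends were covered by 838 to 1390 bp in the KMS34 libraries (median 1126 bp) and by 0 bp in every KMS11 library. In the body and 5 kb either side the KMS34 values were 2499 and 1931 bp at day 0, 1701 and 1764 bp in DMSO and 1538 and 1547 bp in NSD2LDD at day 4, and 2014 and 1704 bp in DMSO and 1825 and 2241 bp in NSD2LDD at day 10. The day 4 NSD2LDD values are the lowest and a day 0 library is the highest, while at day 10 the DMSO and NSD2LDD values overlap.

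H3C3, an H3 gene on the plus strand at chr6:26045384-26045869, is the neighbour of H2BC3 and has the same covered bases in its wider window. Its gene ends were covered by 568 to 1439 bp in KMS34 (median 805.5 bp). In KMS11 nothing was called between 26033945 and 26054800, a stretch of 20856 bp that holds only these 2 genes and lies between open genes on either side, H2AC4 and H1-2. In the same stretch the 10 KMS34 libraries had 20 peaks in all, 19 of them at the ends of H2BC3 or H3C3.

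H4C4, an H4 gene on the minus strand at chr6:26188710-26189112, had 663 to 1397 bp at its ends in KMS34 (median 948 bp). The KMS11 libraries had no peak from 26173263 to 26195512, a stretch of 22250 bp with H2BC6 and H4C4 in it and open genes, H2BC5 and H3C4, beyond. H2BC6 had no gene-end peak in either line, and the 650 to 1193 bp in its wider window in KMS34 lie under the H4C4 peak. KMS34 had 16 peaks in the stretch over its 10 libraries, 10 of them at the ends of H4C4.

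**Figure D2:**
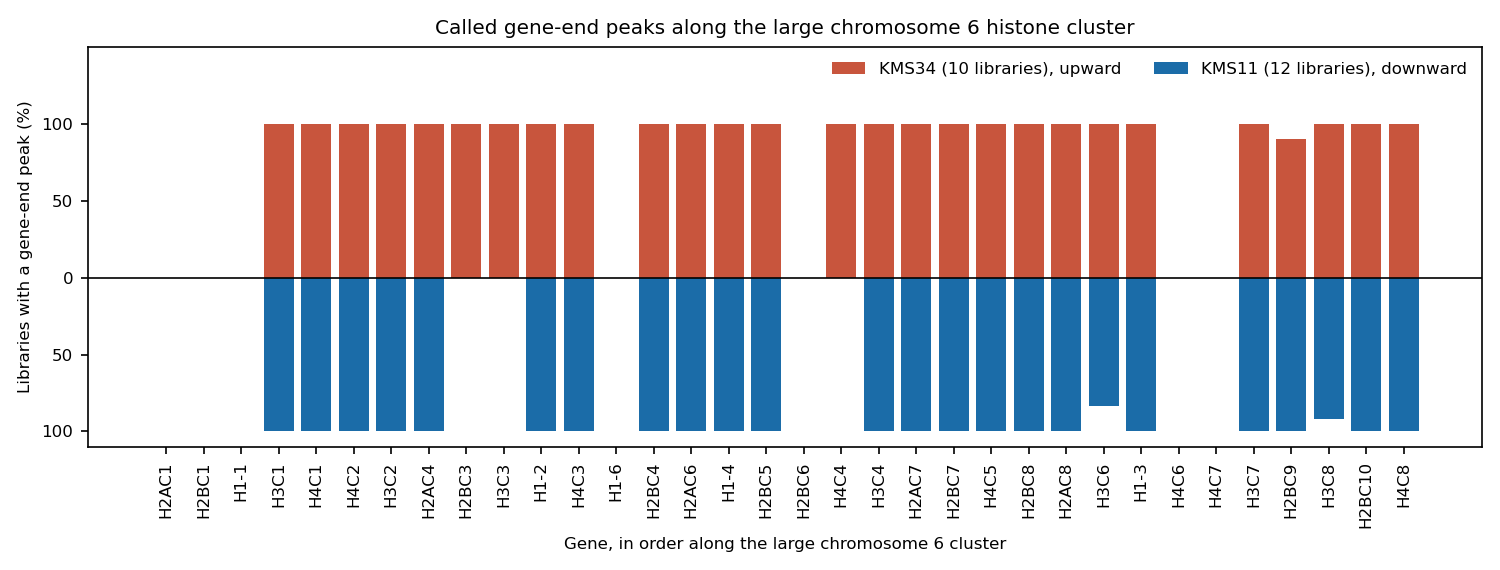
Percent of libraries with a called gene-end peak for the 34 genes of the large chromosome 6 cluster in their order along the chromosome, KMS34 upward (10 libraries) and KMS11 downward (12 libraries). H2BC3, H3C3 and H4C4 have bars upward only and stand among genes with bars in both directions; 7 genes have no bar.

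H4C12, an H4 gene on the minus strand at chr6:27831174-27831560, had 644 to 1270 bp at its ends in KMS34 (median 868 bp). Its peak had the highest median rank among the 6 genes. Its deposited fold enrichment was 10.0 to 15.4 (median 12.5), and its -log10 q ranked at the 84.8 to 94.3 percentile of the peaks of its library. For H2BC3 the fold was 4.14 to 6.38 and the percentile 45.3 to 78.1, and for H4C4 the fold was 8.42 to 11.9 and the percentile 69.3 to 86.8.

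H4C12 has a close copy, H4C11 on the plus strand at chr6:27824092-27824480, and their promoters match at 98.0% of 250 bases. H4C11 did have gene-end peaks in KMS11, in 10 of 12 libraries, and in all 10 KMS34 libraries. Its peaks were weak: the -log10 q ranked at the 0.841 to 44.4 percentile in KMS11 and at the 25.3 to 58.7 percentile in KMS34. With lists of equal length it kept a gene-end peak in 2 KMS11 and 3 KMS34 libraries, and with a -log10 q of 5 or more in 7 and 10. No source used here says how reads that align to both copies were treated, so a peak at either cannot be assigned to 1 copy.

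H2AC25 and H2BC26 are an H2A and an H2B gene that start back to back 230 bp apart on chromosome 1, at chr1:228457364-228457873 and chr1:228458103-228458558, far from the larger clusters. The pair had 1106 to 2146 bp in its window in KMS34 (median 1848.5 bp). It had 0 bp in 11 KMS11 libraries and 259 bp, away from the gene ends, in KMS11 NSD2LDD at day 10, replicate 2. The fold of the strongest peak was 4.50 to 8.10 and its rank the 49.8 to 75.1 percentile. In KMS11 the nearest called peak lay a median of 28718 bp from H2AC25.

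The sequences before the starts of 5 of these genes are shown because each gene had a gene-end peak in every KMS34 library and in no KMS11 library. For comparison they are followed by H2AC6, open in all 22 libraries, and H4C11. Each is the 250 bases that end just before the annotated start, read 5′ to 3′ on the strand of the gene, from RefSeq (GRCh38.p14). Capitals mark the TATA box (TATAAA), the CCAAT box, the octamer ATTTGCAT and the core of an element of H4 promoters (GGTCCG), on either strand.
H2BC3, chr6:26043714-26043963, minus strand: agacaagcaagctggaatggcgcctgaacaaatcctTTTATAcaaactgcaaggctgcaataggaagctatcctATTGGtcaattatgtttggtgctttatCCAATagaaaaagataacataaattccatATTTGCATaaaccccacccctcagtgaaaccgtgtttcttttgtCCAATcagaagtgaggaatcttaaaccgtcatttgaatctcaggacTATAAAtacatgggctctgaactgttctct
H3C3, chr6:26045134-26045383, plus strand: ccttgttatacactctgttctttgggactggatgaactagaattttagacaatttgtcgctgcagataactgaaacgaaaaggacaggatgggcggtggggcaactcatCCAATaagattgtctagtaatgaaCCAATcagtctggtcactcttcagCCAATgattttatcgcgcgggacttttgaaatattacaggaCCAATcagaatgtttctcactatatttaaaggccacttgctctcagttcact
H4C4, chr6:26189113-26189362, minus strand: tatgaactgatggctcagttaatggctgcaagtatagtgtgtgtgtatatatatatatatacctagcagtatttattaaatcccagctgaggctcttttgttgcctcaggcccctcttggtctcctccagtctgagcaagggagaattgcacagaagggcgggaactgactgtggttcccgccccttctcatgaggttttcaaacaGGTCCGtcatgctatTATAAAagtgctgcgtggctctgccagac
H4C12, chr6:27831561-27831810, minus strand: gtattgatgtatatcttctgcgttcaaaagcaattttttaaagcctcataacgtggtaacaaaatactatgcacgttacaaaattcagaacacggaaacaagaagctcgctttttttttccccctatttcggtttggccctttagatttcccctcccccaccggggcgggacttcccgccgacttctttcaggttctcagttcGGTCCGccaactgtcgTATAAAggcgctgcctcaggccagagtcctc
H2AC25, chr1:228457874-228458123, minus strand: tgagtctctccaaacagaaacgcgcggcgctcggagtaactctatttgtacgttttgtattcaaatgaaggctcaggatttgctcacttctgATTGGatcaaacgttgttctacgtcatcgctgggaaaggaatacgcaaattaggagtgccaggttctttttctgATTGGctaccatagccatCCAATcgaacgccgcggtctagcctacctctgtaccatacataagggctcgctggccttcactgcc
H2AC6, chr6:26123922-26124171, plus strand: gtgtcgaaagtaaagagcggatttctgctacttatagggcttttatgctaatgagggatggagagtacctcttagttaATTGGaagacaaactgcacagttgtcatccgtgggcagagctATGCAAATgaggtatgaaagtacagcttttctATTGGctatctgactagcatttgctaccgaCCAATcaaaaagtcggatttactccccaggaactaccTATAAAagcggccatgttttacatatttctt
H4C11, chr6:27823842-27824091, plus strand: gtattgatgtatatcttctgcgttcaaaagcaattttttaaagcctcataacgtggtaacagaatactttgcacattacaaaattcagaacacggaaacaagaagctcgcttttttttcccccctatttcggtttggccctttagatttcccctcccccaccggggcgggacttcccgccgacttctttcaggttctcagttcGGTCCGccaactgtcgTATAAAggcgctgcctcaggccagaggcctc

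Peaks covered these promoters to different extents. In KMS34 the 250 bases of H2BC3 and of H2AC25 were covered whole in every library. Those of H3C3 had a median of 169 covered bases, those of H4C4 145, and those of H4C12 57.5. The H4C12 bases held a peak in only 6 of the 10 KMS34 libraries, with 0 to 250 covered. The summit of the H4C12 peak lay a median of 391 bp after the start of the gene, which is 387 bp long, and past its far end in 7 of 10 libraries, by at most 25 bp. H2AC6 was covered whole in all 22 libraries.

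Each marked element made up a larger share of histone promoters than of all promoters, but ATTTGCAT and GGTCCG were in a minority of them. Of 67 histone genes with a promoter entry, 64.2% held TATAAA in the 250 bases, 83.6% CCAAT, 38.8% ATTTGCAT and 23.9% GGTCCG, on either strand. Over 35116 promoters the shares were 10.7%, 32.0%, 1.63% and 9.43%. GGTCCG was found in 12 of 13 H4 promoters, and ATTTGCAT in 14 of 18 H2B and 11 of 16 H2A promoters and in none of 13 H4 promoters. ATTTGCAT was in 19 of 39 promoters of genes open in all 22 libraries, in 3 of 12 open in none and in 3 of 10 open in some. For GGTCCG these counts were 10, 2 and 2. Among the 6 genes open in KMS34 alone, 3 held TATAAA, 4 CCAAT, 1 ATTTGCAT and 2 GGTCCG. The median GC content was 43.6% over histone promoters, 47.0% over these 6 and 58.0% over all promoters.

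**Figure D3:**
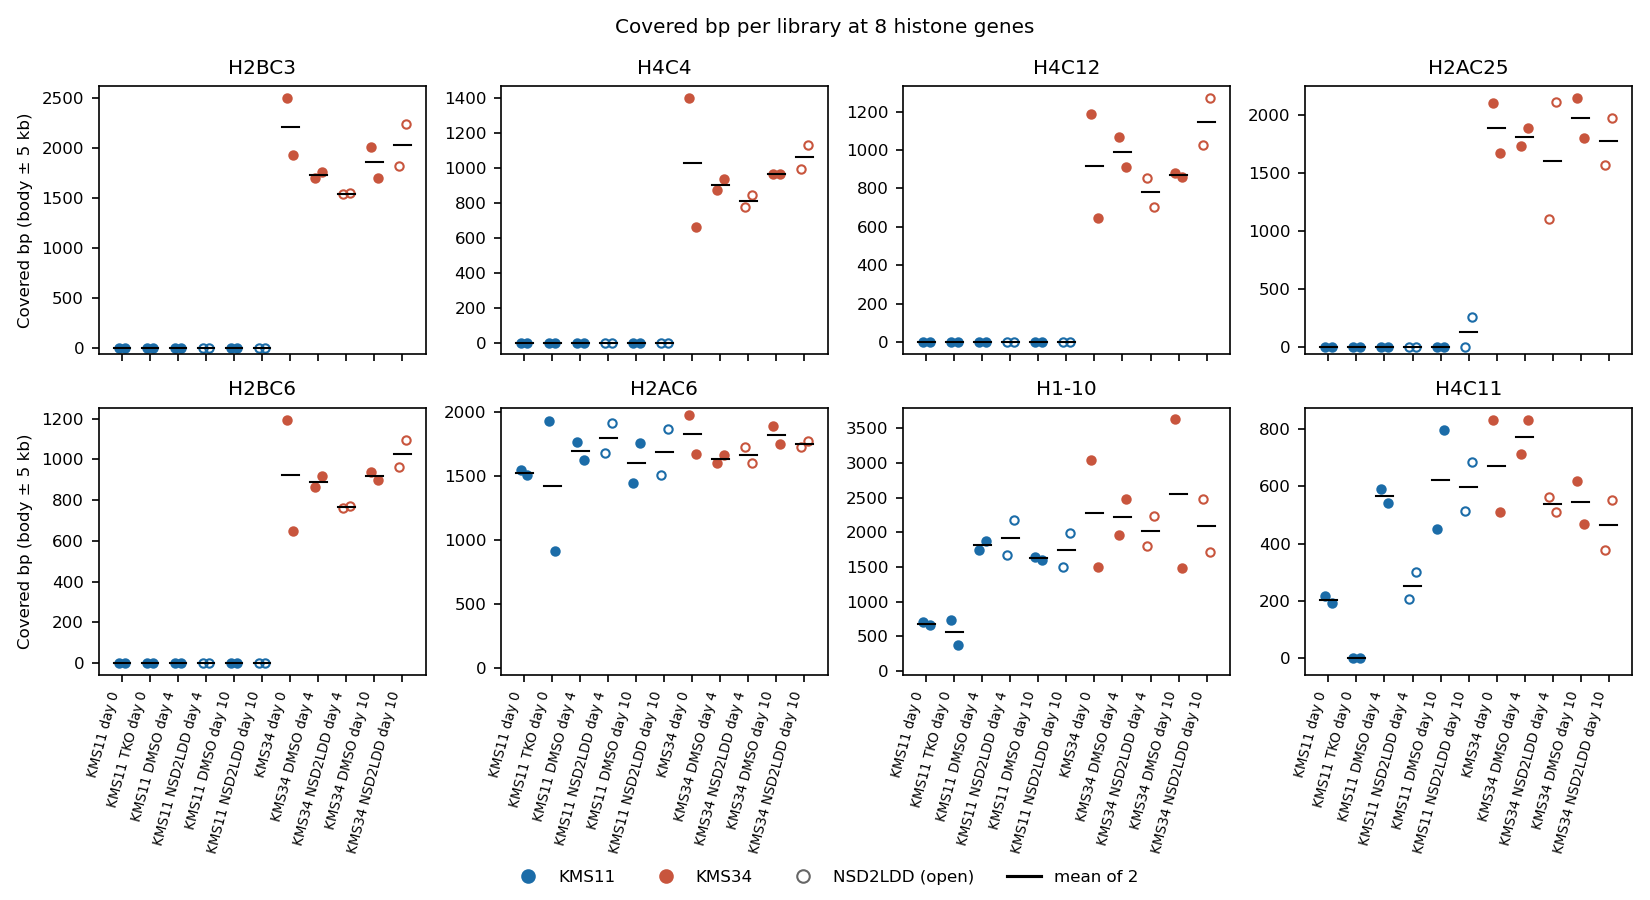
Covered bp in the gene body and 5 kb either side for 8 histone genes, 1 point per library (blue KMS11, red KMS34, open circles NSD2LDD) with a bar at the mean of each group of 2. H2BC3, H2BC6, H4C4 and H4C12 are at 0 in every KMS11 library and H2AC25 in 11 of 12; H2AC6 is covered in all, H1-10 is low in the 4 KMS11 day 0 libraries including TKO, and H4C11 is at 0 in both TKO libraries.

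The remaining differences between lines were smaller. On the log2 scale of covered bp with 200 bp added, scaled to each library's median, KMS34 was above KMS11 by 3.19 at H2BC3 and H3C3, 3.16 at H2AC25 and H2BC26, 2.30 at H4C4, 2.26 at H4C12 and 2.24 at H2BC6 over the day 0 and DMSO libraries (6 of each line). Because one line has no covered base there, these sizes depend on the 200 bp added. H2AC19 and H3C15, which share a window on chromosome 1, were at -1.33. The median over the 68 histone genes covered in at least 2 libraries was 0.13, against 0.03 over all 16738 such genes.

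H2AC19 and H3C15 share a window with a median of 1365.5 bp in KMS11 and 465 bp in KMS34. At the ends of H2AC19 the medians were 364 and 341 bp, so the difference lay mostly elsewhere in the window. H2AC19 had a gene-end peak in all libraries but KMS34 day 0 replicate 2, and H3C15 had none. H4C15 beside them had medians of 2054.5 and 968.5 bp. In the other direction H2BC14 had medians of 910.5 bp in KMS11 and 1795 bp in KMS34. H3C11 and H4C13, an H3 and an H4 gene in the distal cluster, had a gene-end peak in 4 KMS34 libraries and no KMS11 library. The 4 were 3 of the 4 NSD2LDD libraries (day 4 replicate 1 and both at day 10) and 1 of the 4 DMSO libraries (day 10 replicate 1). In each of these libraries both genes had the same peak. With windows of 250 bp H4C13 kept it in 4 KMS34 libraries and H3C11 in 0. All these peaks were weak, at a median of the 17.4 percentile of their lists.

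Peaks covered 22171 to 50992 bp of the 5 clusters and 5 kb either side in KMS11 (median 37439.5 bp) and 39899 to 60385 bp in KMS34 (median 47295 bp), so the ranges overlap. Per Mb covered genome-wide, the clusters took 1566 to 1931 bp in KMS11 (median 1805 bp) and 1690 to 2192 bp in KMS34 (median 1949 bp), and these ranges overlap too. The KMS34 lists were longer, and the part of list length in the difference was not tested. By cluster, the medians were 20906 bp in KMS11 and 26675.5 bp in KMS34 for the large chromosome 6 cluster, 3319 and 4142 bp for the small one, and 6144 and 9283.5 bp for the distal one. The larger chromosome 1 cluster had the reverse order, with 6735.5 and 5898.5 bp.

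**Figure D4:**
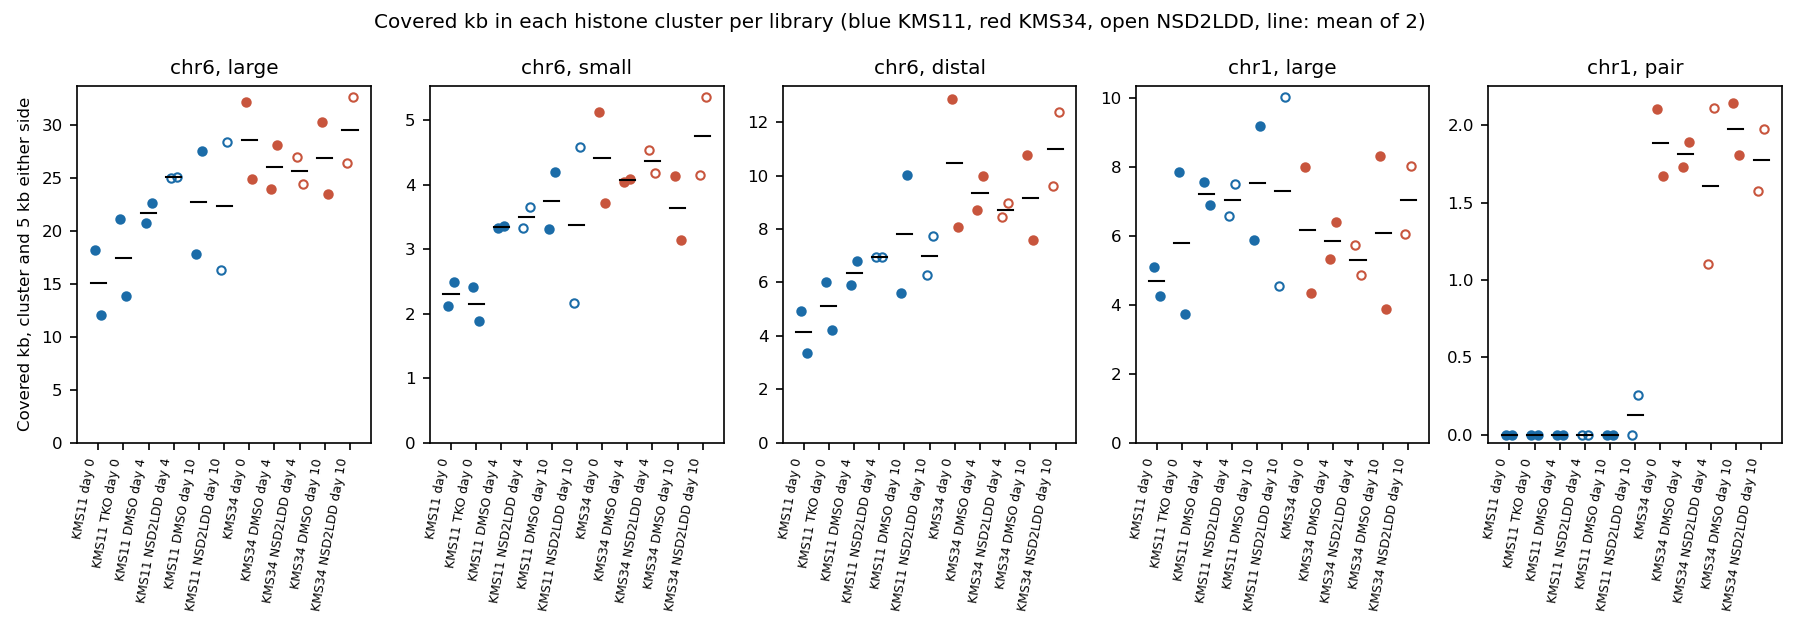
Covered kb in each of the 5 histone clusters and 5 kb either side, 1 point per library (blue KMS11, red KMS34, open circles NSD2LDD) with a bar at the mean of each group of 2. Replicate 2 of day 0 and of TKO are the lowest KMS11 libraries in the large and the distal chromosome 6 clusters. DMSO and NSD2LDD points overlap in each line except in the small chromosome 6 cluster in KMS34. There the highest DMSO library (4138 bp) is just below the lowest NSD2LDD library (4146 bp). The chromosome 1 pair is at or near 0 in KMS11 and between 1.11 and 2.15 kb in KMS34.

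The treated and vehicle libraries of a line had similar coverage of the clusters. In KMS11 the 5 clusters held 40173 ± 7746 bp in DMSO and 41337 ± 8988 bp in NSD2LDD (mean and SD, n = 4 each). In KMS34 they held 47448 ± 6982 bp in DMSO and 49866 ± 7149 bp in NSD2LDD (n = 4 each). These means over all 5 clusters differ by less than the spread between libraries in both lines. The small chromosome 6 cluster in KMS34 held 3851.5 ± 479 bp in DMSO and 4555.8 ± 563 bp in NSD2LDD (n = 4 each). Its ranges there, 3135 to 4138 bp and 4146 to 5356 bp, did not overlap, and this was not tested. Over all 5 clusters, day 0 KMS11 had 30290 and 22171 bp and TKO 37357 and 23691 bp, overlapping each other. TKO replicate 1 lay within the range of the DMSO libraries (32615 to 50922 bp) and the other 3 below it. The day 0 and TKO lists held 24979 to 36913 peaks, and the part of list length in this was not tested.

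No histone gene passed the test for a change under NSD2LDD. With lists of equal length 1 did, H3C11 in KMS34, with the opposite direction: its log2 difference was 0.22 ± 0.25 (SE, limma adjusted p = 1.000) with whole lists and -1.08 ± 0.19 (adjusted p = 0.0294) with equal ones. For KMS11 the fit with limma over all 22 libraries called 0 of the 68 histone genes tested and 0 of 16738 genes (0%) at an adjusted p under 0.05, with 586 genes and 1 histone gene at an unadjusted p under 0.05. For KMS34 it also called 0 of 68 and 0 of 16738 (0%), with 1044 genes and 1 histone gene unadjusted. The difference between the effects in KMS34 and in KMS11 was called at 0 of 68 and 0 of 16738 (0%), with 556 genes and 0 histone genes unadjusted. The 6 histone genes not tested, H4C14, H1-8, H2AC1, H2BC1, H1-7 and H2BC12L, were covered in fewer than 2 libraries.

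The fitted log2 differences of the histone genes ran from -0.43 to 0.31 in KMS11 (median -0.02, all genes -0.01) and from -0.26 to 0.59 in KMS34 (median 0.04, all genes -0.004). Among those with any covered base in the compared libraries, 27 of 62 were above 0 in KMS11 and 51 of 67 in KMS34, where 49.0% and 48.0% of all such genes were. Many of these genes share windows, so the counts are a description. The median standard error of these differences was 0.16 in each line.

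The 2 genes with an unadjusted p under 0.05 were H4C11 in KMS11 and H2BC11, an H2B gene of the small chromosome 6 cluster, in KMS34. H4C11 in KMS11 had 589 and 540 bp in DMSO and 205 and 302 bp in NSD2LDD at day 4, and 451 and 795 bp in DMSO and 514 and 683 bp in NSD2LDD at day 10. The 2 groups are apart at day 4 and overlap at day 10, and the log2 difference over both days was -0.41 ± 0.17 (SE, limma adjusted p = 1.000). H2BC11 in KMS34 had 1455 and 1375 bp in DMSO and 1952 and 1418 bp in NSD2LDD at day 4, and 1417 and 1071 bp in DMSO and 1585 and 2320 bp in NSD2LDD at day 10. Its log2 difference was 0.40 ± 0.19 (SE, limma adjusted p = 0.788), with the groups overlapping at day 4 and not at day 10.

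None of the genes restricted to KMS34 passed the test under NSD2LDD there, but they were chosen for a gene-end peak in all 10 KMS34 libraries, treated ones included, so a gene that lost its peak could not be among them. The log2 differences were 0.00 ± 0.18 (SE) at H2BC3, 0.01 ± 0.21 at H4C4, 0.04 ± 0.22 at H4C12 and -0.16 ± 0.22 at H2AC25. The limma adjusted p was 1.000 at each of these. The same genes were also chosen for no gene-end peak in any KMS11 library, NSD2LDD ones included. Their lack of one in KMS11 at day 4 and day 10 of NSD2LDD was therefore fixed by the choice.

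**Figure D5:**
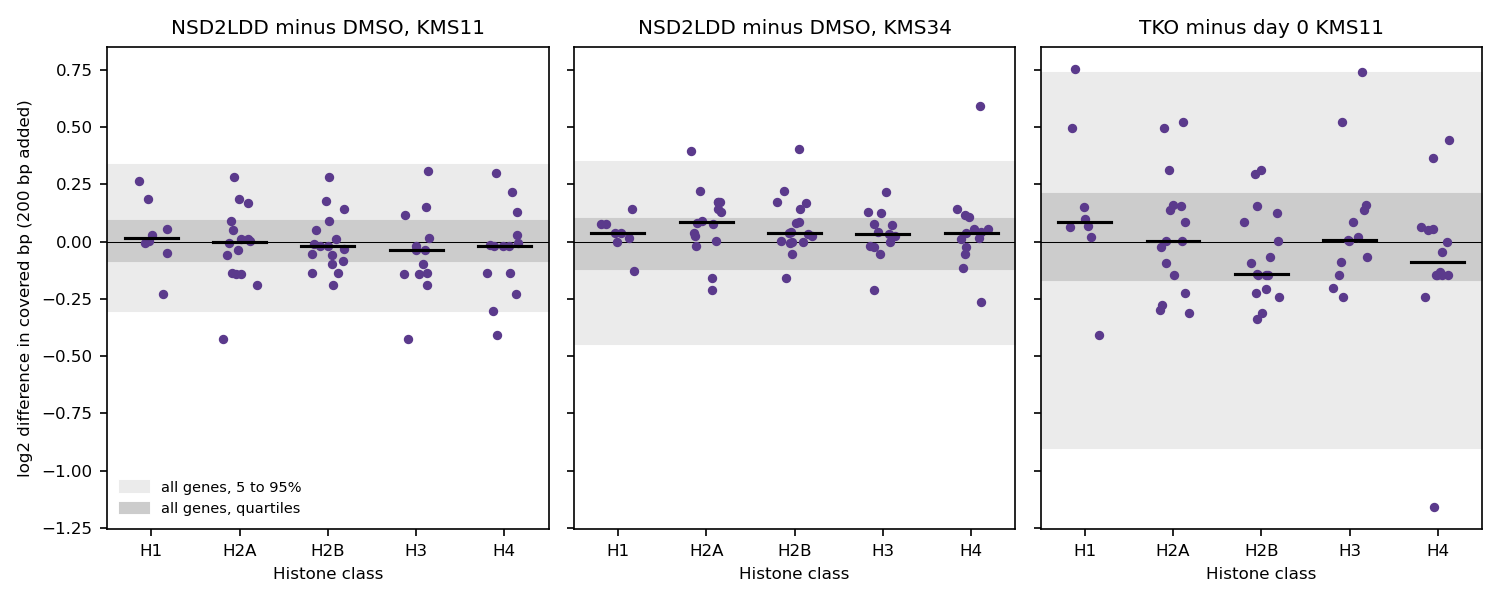
Fitted log2 differences in covered bp (200 bp added) of the 68 histone genes tested, 1 point per gene by class with a bar at the class median, for 3 comparisons; the grey bands hold the central 50% and 90% of all 16738 genes. The points lie near 0 under NSD2LDD in both lines and spread more in TKO, where H4C11 is lowest at -1.16.

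The TKO libraries differed from day 0 KMS11 at 1 histone gene. H4C11 was covered by 218 and 191 bp in the day 0 libraries and by 0 bp in both TKO libraries, a log2 difference of -1.16 ± 0.24 (SE, limma adjusted p = 0.00848), lower in 2 of 2 TKO libraries. The 2 day 0 peaks do not overlap: that of replicate 1 (27823796 to 27824013) lies before the gene and that of replicate 2 (27824673 to 27824863) past it, so no peak shared by the day 0 libraries was lost. As above, peaks here cannot be assigned to H4C11 or its copy H4C12. This was the only call among 68 histone genes, 0 of them higher, while 4.69% of the 16738 genes were called (226 higher and 559 lower, and 3.34% for lower calls alone). The day 0 peaks were among the weakest in their lists, with -log10 q of 2.36 and 4.18, and the call was lost when peaks under 5 were left out (log2 difference -0.15, limma adjusted p = 0.937).

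Leaving out day 0 replicate 2 or TKO replicate 1 also ended the call (limma adjusted p = 0.0779 in both cases), and without day 0 replicate 1 there were 3 calls, with H1-3 and H3C11 higher beside H4C11. H1-3, a linker histone gene of the large cluster, had 994 and 178 bp in day 0 KMS11 and 1400 and 782 bp in TKO, which overlap, and a log2 difference of 0.75 ± 0.32 (SE, limma adjusted p = 0.248). The day 0 library with 178 bp is the one with the shortest list. Over all 68 histone genes the median log2 difference was 0.00, against -0.03 over all genes, and 9 of the 68 had no covered base in either group, so that their fitted value of -0.14 comes from the scaling alone.

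H1-10, the replication-independent linker histone gene on chromosome 3, differed between day 0 and the later days in KMS11. Its gene ends were covered by 466 and 334 bp in day 0 KMS11 and by 210 and 219 bp in TKO, and by 974 to 1479 bp in the 8 KMS11 libraries of day 4 and day 10, DMSO and NSD2LDD alike. These ranges do not overlap, as at 4.08% of all genes with the later libraries higher, and H1-10 was the only 1 of the 74 histone genes with this pattern, which was noticed after its values were seen. In KMS34 the day 0 libraries had 2763 and 1288 bp and the others 1003 to 3004 bp, which do overlap. The contrast of days was not tested. Of the 4 day 0 KMS11 and TKO lists, 3 were the shortest of that line (24979 to 30699 peaks), and the fourth held 36913 peaks, above the median of the line, so the part of list length was not tested either. TKO against day 0 KMS11 gave -0.41 ± 0.27 (SE, limma adjusted p = 0.528) in the wider window.

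The genes that make and process histone mRNA were open throughout. Of 19 genes for histone gene transcription and mRNA processing, 18 had a gene-end peak in every library, and LSM10, a subunit of the U7 particle that cuts histone mRNA, lacked one in 1 KMS11 library. NPAT had 597 to 1488 bp at its ends over the 22 libraries (median 1024 bp), SLBP 619 to 1949 bp (median 1160 bp), CASP8AP2, a protein of the histone locus body, 710 to 1193 bp (median 999.5 bp), and HINFP, the factor that binds H4 promoters, 517 to 1445 bp (median 815.5 bp). All 19 were tested and none was called in any of the 4 comparisons, with unadjusted p under 0.05 at 0 of them for NSD2LDD in either line and at 4 for TKO. Their median log2 differences were -0.04 in KMS11, 0.01 in KMS34 and -0.06 in TKO.

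All 15 histone chaperone genes, whose proteins carry and deposit histones, had a gene-end peak in every library, and 0 of 15 were called in any of the 4 comparisons (limma; unadjusted 0 in KMS11, 1 in KMS34, 0 for the difference and 1 in TKO). Of 10 genes for replication-independent variants, 7 had one in every library, and MACROH2A2 and H3-5 in none. The tenth, H2AJ, had a gene-end peak in all 10 KMS34 libraries and in no KMS11 library. It is not in the set described here, but it neighbours H4C16 on chromosome 12, which was open in all 22.

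The clusters also hold 8 other protein-coding genes, at which peaks ranged from none to all libraries. SLC17A1, SLC17A2, SLC17A3 and SLC17A4, phosphate transporter family genes between H2BC1 and H1-1, had no gene-end peak in any library. TRIM38, a ubiquitin ligase gene, and LOC124904411 had one in all 22, HFE, the iron regulator gene, in 4 KMS11 and 7 KMS34 libraries, and FCGR1A, an Fc receptor gene, in 1 KMS11 library. Of the 5 tested, none was called in any comparison (limma; unadjusted 1 in KMS11, 1 in KMS34, 0 for the difference and 0 in TKO).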

How the data were processed

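ATAC-seq peaks were analysed in 22 libraries of KMS11 and KMS34. Per the submitters' processing notes, fastp, BWA, SAMtools, Picard, MACS3 and deepTools were used with hg38; no source used here gives their versions or settings, the Tn5 shift, or how duplicates and multiply aligned reads were treated. Each deposited list holds peaks of 1 library with the caller's -log10 q (2.00 or more), a deposited fold enrichment (a ratio over modelled background) and the summit's offset; the first ranked or filtered peaks within a list and the others only described them. Percentiles are ranks of -log10 q within a list.

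Gene positions, without strand, came from RefSeq (GRCh38.p14), and promoters, with strand, from the RefSeq promoter table, which held 67 of the 74 genes. The values of 1 histone gene are not reported here, though it enters the counts. Covered bp were counted in Python 3.11.15 (numpy 2.4.6, pandas 2.3.3, figures with matplotlib 3.10.9) and checked against bedtools 2.31.1. Genes covered in at least 2 libraries (16738) were fitted as log2 of covered bp plus 200, less the library median over genes covered in all libraries, with limma 3.58.1 (trend and robust, R 4.3.3), 1 mean per group and Benjamini-Hochberg adjustment at 0.05 over all of them. NSD2LDD effects average day 4 and day 10. The fit was tested on simulated data. With 2 libraries per group an exact permutation p could not reach 0.05, so none is given for single values.

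The members, gene lists and comparisons were chosen with earlier results of these data known. Named genes are H2BC3, H2AC25, NPAT, SLBP, CASP8AP2 and HINFP, histone genes called in a tested comparison or with no gene-end peak, the 10 with the largest line differences in libraries or in log2 covered bp, and the highest and lowest of each cluster; others named were chosen after their values were seen. Alternatives were a -log10 q of 5 or more, lists cut to the 24979 strongest peaks, other scalings, a fit within 1 line, list length as a covariate, a replicate block, other limma settings, 50 or 1000 bp added, other minimums of libraries, other windows, single days, and leaving out each library.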

Additional observations from a re-analysis of the deposited data

Results flagged for a closer look

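Within each line, the 4 DMSO and the 4 NSD2LDD libraries of both days were checked for a library far from the other 3. H2AC25 and H2BC26, which share a window, had 259 covered bp in KMS11 NSD2LDD at day 10, replicate 2, against 0 in the other 3. In KMS34 DMSO, day 10 replicate 1 had 60 histone genes with a gene-end peak, against 58 in each of the others, and that library also covered the most bases genome-wide (31.8 Mb). In all, 30 groups were checked and 3 were flagged, with H2AC25 and H2BC26 flagged separately. Chance alone flags about 1 in 20 such groups when their values are not tied. In each flagged group the other 3 libraries had equal values, so any departure is flagged whatever its size, and that rate does not apply.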

How the results depend on the processing

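Read depth is unknown, so list length stands in for it. With lists of equal length, H2BC3 kept a gene-end peak in 9 of 10 KMS34 libraries, and the other 5 genes restricted to KMS34 kept all 10; H3C11 and H4C13 had none, and H4C11 fell to 2 KMS11 and 3 KMS34 libraries. Histone genes with a gene-end peak then averaged 49.1 in KMS11 and 53.7 in KMS34, and 47.1 and 54.3 with windows of 250 bp. Without the 6 genes restricted to KMS34, a choice made after seeing the data, the KMS34 mean was 52.6. With 1 kb in place of 5 kb, the KMS34 means were 1112.6 bp at H2BC3 and 1343.6 bp at H2AC25 (1876 and 1812 bp with 5 kb).

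Histone genes called for TKO were 0 with a -log10 q of 5 or more, with no scaling, with a fit within 1 line and with 1000 bp added, and 0 to 3 with 1 library left out; all genes called numbered 209 to 1267 over the alternatives, with 209 for no scaling, which moved the median of all genes by 0.14, 465 with 1000 bp added and 366 at gene ends alone. The H4C11 adjusted p in limma ranged from 3.5e-04 (50 bp added) to 0.937. With lists of equal length, H3C11 was called instead of H4C11 (log2 difference 1.55, adjusted p = 0.00474), and it was the 1 histone gene called for NSD2LDD in KMS34 (-1.08, adjusted p = 0.0294, where whole lists gave 0.22), where all genes called reached 47. In KMS11 and for the difference between lines 0 histone genes were called under every alternative, and at most 4 and 9 of all genes. With day 4 alone in KMS11, 6 of 68 histone genes and 455 of 16738 genes had an unadjusted limma p under 0.05. With day 10 alone these counts were 0 and 569. Many histone genes share windows, so these counts are a description.

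After scaling to the library median, deviations of same-numbered libraries correlated from -0.21 to 0.27 between groups of KMS11 and from -0.20 to 0.18 in KMS34. This check spans all days and leaves out list size. At day 10 the KMS11 lists covered 17.9 Mb in DMSO and 18.0 Mb in NSD2LDD for replicate 1, and 26.7 and 27.1 Mb for replicate 2. In KMS34 at day 10 the values were 31.8 and 25.4 Mb, and 20.9 and 29.1 Mb. A pairing in list size was not tested. With the replicate block, the histone genes called were 0, 0, 0 and 1 (KMS11, KMS34, difference and TKO), and H4C11 had an adjusted p of 0.0157.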
